A study of Mus musculus with 94 samples.

Results

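A set of 150 probes was described whose counts in injured tubules climbed over the days after renal ischemia-reperfusion injury (IRI) and stood highest on day 14. The members were selected on measured values, from 20175 probes of a whole transcriptome panel for mouse. The values that chose them were the mean log2(CPM + 1) of vehicle-treated tubules on days 1, 7, and 14 minus that of control tubules, where CPM is the count scaled to a fixed total over all probes of a section (counts per 1e6). A probe passed where the day 14 difference was at least 1 and the largest of the 3, the day 7 difference at least 0.5, and the day 1 difference not below 0. Its level in macrophage segments of vehicle-treated kidneys on days 7 and 14 had to exceed that in tubules by less than 1. These steps left 1051, 995, 819, 771, and 585 probes, of which 584 remained after 3 barred identifiers were taken out, and the 150 with the largest day 14 difference became members. Neither gene names nor sequences accompany the identifiers in the files, so members are given by identifier, by their rank in the day 14 difference, or by count. For the same reason the labelled cell types could not be checked against marker genes.

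The counts came from digital spatial profiling (DSP) of kidney sections from C57BL/6 male mice, a method that releases probe barcodes by light from areas outlined on the tissue and counts them by sequencing. Mice had unilateral renal IRI after pretreatment with entospletinib, an inhibitor of the kinase SYK, or with vehicle, and kidneys were collected on day 1, 7, or 14. Per the study's methods, animals of day 1 had the pretreatment alone, and later ones had further injections. The labels and the study's methods give different intervals between pretreatment and injury. Controls were uninjured kidneys, which the labels give as contralateral, so that such an animal had an injury on the other side. The study's methods also mention healthy mice. Each of the 7 groups had 2 sections, told apart by the prefix of the label, and no label states that a prefix is a single mouse. Tubule segments were outlined by PanCK and CD10 staining, and macrophage segments by IBA1 staining in the same regions. In control, day 1, and day 7 sections there was 1 medulla and 2 cortex regions, and in day 14 sections there were 2 of each, so the share of medulla changed with the day.

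The kidney tubule is lined by epithelial cells that reabsorb most of what the glomerulus filters. Ischemia strips proximal tubule cells of their brush border. Survivors dedifferentiate, divide, and either regain their transport functions or remain in a maladaptive state that secretes cytokines and matrix signals. Unilateral IRI without removal of the other kidney is used as a model in which acute injury passes into chronic disease. SYK relays signals from immune receptors and integrins, mainly in leukocytes.

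All regions of a section and stain were added up, and the section served as replicate (n = 2 in every group). Tubule sums held 9404235 to 25729550 counts, and macrophage sums 117693 to 2773456. With 2 sections per group, the spread behind the p-values was estimated over all groups in a fit and drawn toward that of other probes. In the paired fits it was the spread left after the section block. This spread may be in part technical. In bulk segments, a higher share of cells with a transcript and more of it in each cell cannot be told apart.

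In vehicle tubules the members climbed stepwise. Their mean level was 4.66 and 4.97 log2(CPM + 1) in the control sections, 5.51 and 5.67 on day 1, 6.37 and 6.12 on day 7, and 6.90 and 7.17 on day 14. No section of a later day fell within the range of an earlier group. The mean over all probes lay between 4.64 and 5.04 in these 8 sections. As a share of all tubule counts, the members rose from 0.568% and 0.756% in controls to 3.14% and 4.02% on day 14. These levels restate the rule and carry no test.

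**Figure D1:**
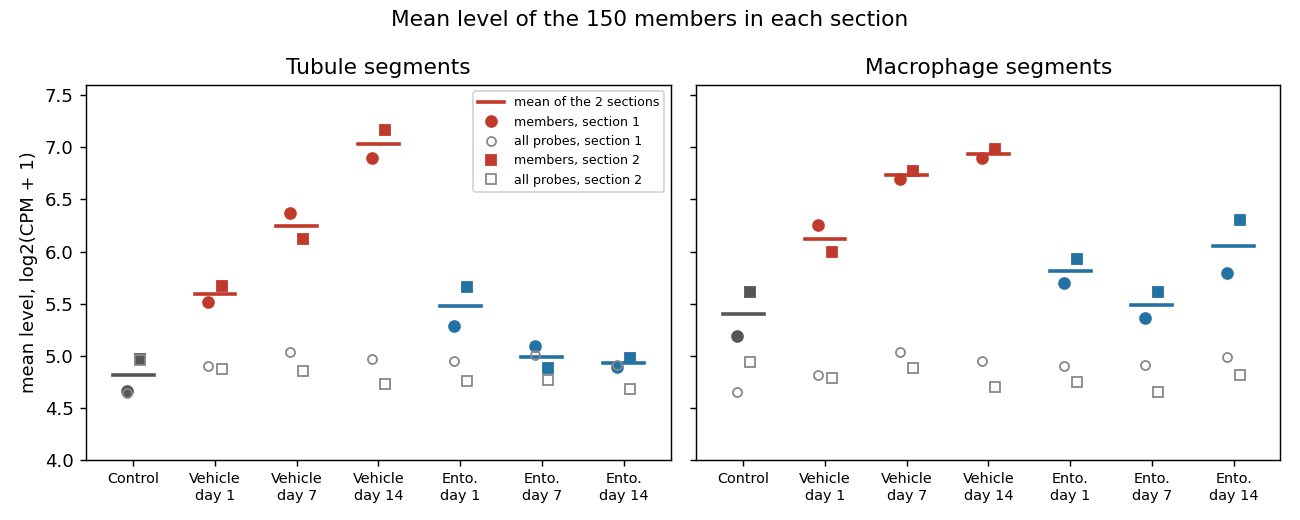
Mean level of the 150 members (filled) and of all probes (open grey) in each section, in log2(CPM + 1), for tubule segments (left) and macrophage segments (right). Circles are section 1, squares section 2, and bars the mean of the 2 sections. Tubule members climb in the vehicle groups from 5.59 on day 1 to 7.03 on day 14 and lie at 4.93 on day 14 with entospletinib, near the control mean of 4.81.

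In control tubules the members were ordinary in abundance. Their median control level was 4.55 log2(CPM + 1), against 4.58 over all probes, and ranged from 3.35 to 9.98. The median member held 191 counts in control section 1 and 420 in section 2. The lowest member held 77 counts in section 1. Background binding is part of these counts, and whether members stood above it in controls was not tested.

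The rise differed among members in size and in timing. The median difference from control was 0.64 on day 1, 1.33 on day 7, and 2.08 on day 14 (log2 scale). On day 14 the members ranged from 1.76 to 4.39, with 92 at 2 or more and 9 at 3 or more. The last member, rank 150, had a day 14 difference of 1.758 and the probe of rank 151, just outside, had 1.755. Much of the climb was in place before the last interval, since the day 7 difference was a median 0.64 of the day 14 difference (range 0.17 to 0.97). From day 7 to day 14, 44 members rose by a further 1 or more, and 18 by less than 0.25. In 10 members the day 7 difference was below that on day 1, so the path was not always upward.

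Members could be ordered by how much of the response was present on day 1. In 59 members the day 1 difference was below 0.5, in 47 it was 0.5 to 1, and in 44 it was 1 or more. The 59 late members had medians of 0.28, 0.97, and 1.97 on days 1, 7, and 14. The 44 early members had 1.37, 1.89, and 2.38. These labels rest on section sums, which on vehicle day 1 were mostly cortex. In medulla alone 92 members were at 1 or more on day 1, beside 4.39% of all probes, and in cortex alone 28, beside 0.62%.

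The probe with the largest day 14 difference, RTS0064419, was a late member. It had 12.7 and 14.0 CPM in the control sections, 15.7 and 15.7 CPM in vehicle sections on day 1, 88.9 and 35.1 CPM on day 7, and 325 and 277 CPM on day 14. Its groups on days 7 and 14 did not overlap with control or with each other. RTS0062101, second in rank, moved mostly between days 1 and 7. It had 14.4 and 16.8 CPM in controls, 24.6 and 31.4 CPM on day 1, 314 and 235 CPM on day 7, and 215 and 435 CPM on day 14. Its day 7 and day 14 sections overlapped. Sections of the entospletinib groups held RTS0064419 at 12.5 to 17.5 CPM and RTS0062101 at 15.4 to 32.8 CPM.

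**Figure D2:**
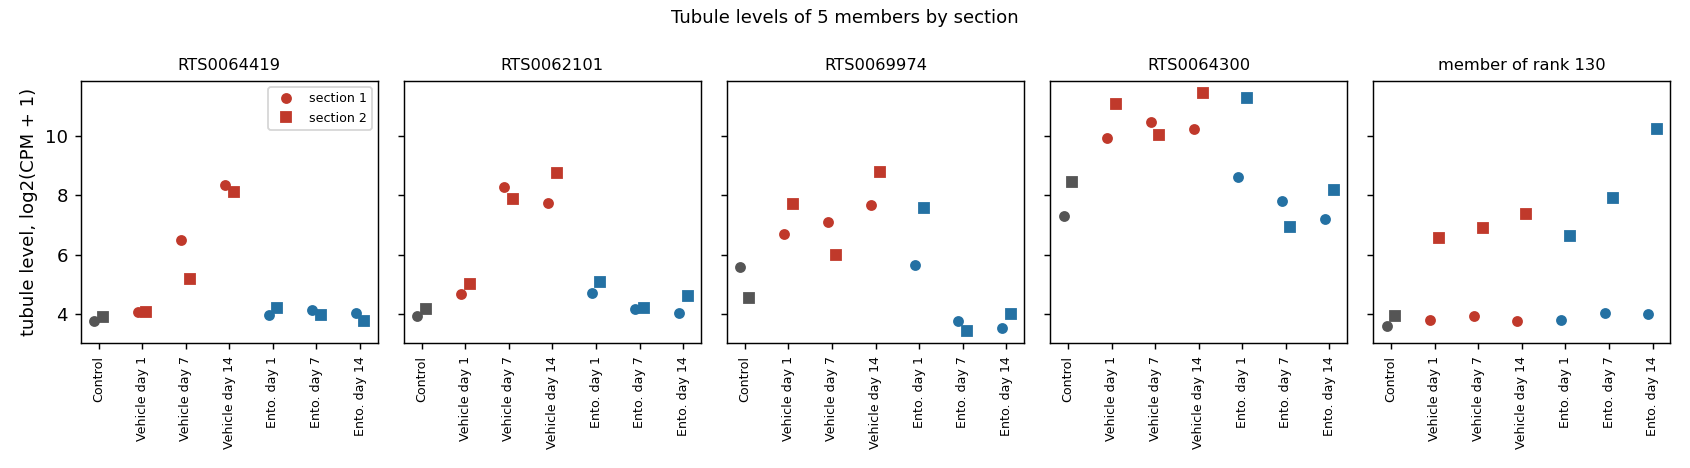
Tubule level in log2(CPM + 1), by section (circles section 1, squares section 2), of the 2 members with the largest day 14 difference, the 2 with the lowest fold change between days 14 and 1 under entospletinib, and the member of rank 130. RTS0064419 reaches 8.35 and 8.12 on vehicle day 14 and stays at 4.21 or below under entospletinib, while the member of rank 130 is high in section 2 of each ischemic group alone.

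Sections that the choice of members did not see were then examined. When the rule was applied without section 1 of vehicle day 14, its 150 probes had a median difference from control of 1.88 in that section, and 140 were at 1 or more. Over all probes, 4.53% were at 1 or more there. Without section 2 of vehicle day 14, the median in the section left out was 2.02 and 148 of 150 were at 1 or more, beside 6.10% of all probes. For day 7 the medians in the section left out were 1.52 and 1.22, beside 0.27 and 0.03 over all probes. There, 133 and 93 of 150 were at 1 or more, beside 2.10% and 1.52% of all probes. For day 1 the medians were 0.588 and 0.725, beside 0.122 and 0.091 over all probes. On that day 31 and 49 of 150 were at 1 or more, beside 0.59% and 1.125% of all probes. The control sections entered both the choice and these values.

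Under entospletinib, the members stood above control on day 1 and near the control level on days 7 and 14. Their mean tubule level was 5.29 and 5.66 log2(CPM + 1) on day 1, 5.09 and 4.88 on day 7, and 4.89 and 4.97 on day 14. The median difference from control was 0.49, 0.15, and 0.09 on these days, beside 0.06, 0.10, and -0.003 over all probes. On day 14 the difference lay within 0.5 of control in 139 members, and the share of all probes within that range was not taken. Both day 1 sections were above both control sections in 94 members, beside 14.2% of all probes. On day 14 this held for 21 members, beside 4.17% of all probes. The control sums also set the rule, so these counts are a description. On day 14 the sign of the median leaned on single control sections, being -0.09 without section 1 and 0.26 without section 2, and it was -0.01 in medulla alone.

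**Figure D3:**
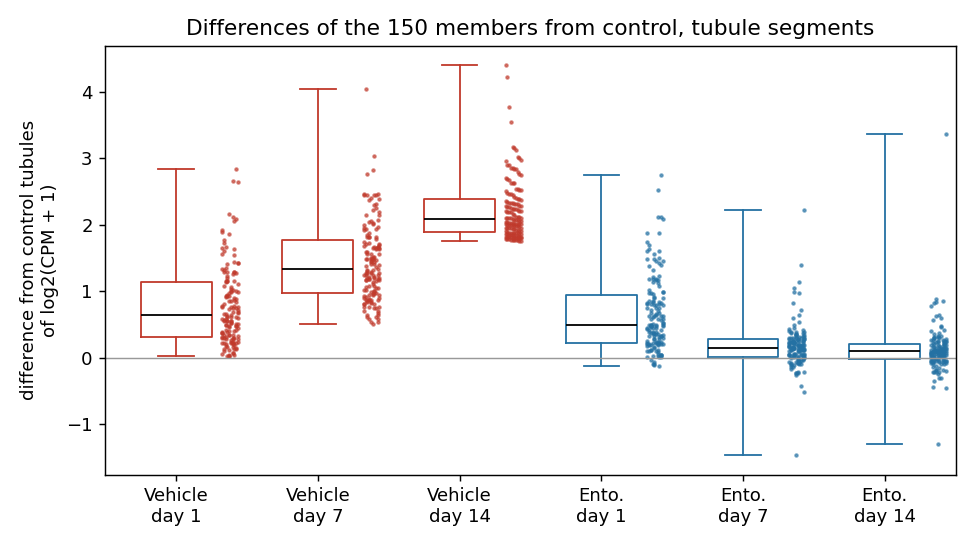
Difference of each of the 150 members from control tubules, in log2(CPM + 1), by day in vehicle (red) and entospletinib (blue) groups. Boxes span the quartiles with the median, whiskers the full range, and dots are members. Vehicle medians climb from 0.64 to 1.33 and 2.08, and entospletinib medians go from 0.49 to 0.15 and 0.09.

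Set beside vehicle, the gap opened with time. The median difference of entospletinib minus vehicle tubules was -0.09 on day 1, -1.14 on day 7, and -2.003 on day 14, and over all probes it was -0.04, -0.03, and 0.06. The day 1 value turned to 0.04 without section 1 of entospletinib day 1, and was -0.20 without section 2 and -0.34 with the mean of the regions' CPM. In medulla alone the medians were -0.75, -1.64, and -2.39 on the 3 days, and in cortex alone 0.06, -0.90, and -1.56. The day 1 sums held a larger share of medulla under entospletinib than under vehicle. Both entospletinib sections were below both vehicle sections in 32 members on day 1, beside 10.7% of all probes. The count was 140 on day 7, beside 22.3%, and 149 on day 14, beside 31.8%. On day 14, 148 members were lower by 1 or more. Vehicle values on these days chose the members, which makes the vehicle side high by construction, and no test was made. Upper quartile scaling moved the median of all probes for day 14 from 0.06 to 0.31. Relative to all probes the members' median was -2.06 with CPM over the total and -2.05 with upper quartile scaling.

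The exception on day 14 was the member of rank 130, chosen for mention after its values were seen. It had 11.1 and 14.3 CPM in control sections. In section 1 of the 6 ischemic groups it stayed at 12.6 to 15.4 CPM. In section 2 it had 94.5, 120, and 166 CPM on vehicle days 1, 7, and 14 and 97.4, 240, and 1224 CPM on entospletinib days 1, 7, and 14. Its place among the members thus rested on section 2 of each vehicle group.

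No entospletinib sum entered the rule, so the time course within these tubules could be tested. On day 14 against day 1, 13 members fell and none rose by edgeR's quasi-likelihood test, at a Benjamini-Hochberg adjusted p under 0.05 over all probes and an absolute log2 fold change above 1. All 150 members passed the filter on low counts. The test called 0.248% of all probes lower and 0.0347% higher. The 13 had log2 fold changes of -2.66 to -1.09 (median -1.57), SEs of 0.14 to 0.41, and adjusted p of 0.0115 to 0.0487, and in each of them both day 14 sections lay below both day 1 sections. Over all 150 the median was -0.34, against 0.03 for all probes, and 118 were below 0. At an unadjusted p under 0.05 there were 67 members in either direction, beside 1759 of all 20175 probes. DESeq2 called 27 members lower and 0 higher, beside 108 and 51 of all probes.

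All 13 came from the 44 members with a day 1 difference of 1 or more in vehicle tubules. In those 44 the median log2 fold change was -1.20, with 41 below 0. It was -0.47 in the 47 members with a day 1 difference of 0.5 to 1, and -0.01 in the 59 late members. Whether the 3 groups differed was not tested. Under entospletinib, the late members had a median difference from control of 0.20, 0.17, and 0.09 on the 3 days, and the 44 early members 1.27, 0.15, and 0.09.

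**Figure D4:**
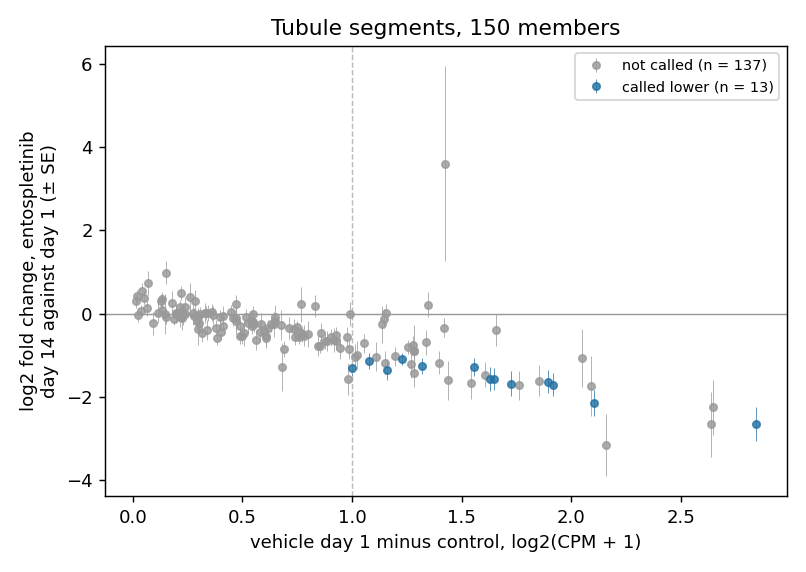
For each of the 150 members, the log2 fold change of tubules on day 14 against day 1 under entospletinib with its SE (y), against the vehicle day 1 minus control difference in log2(CPM + 1) (x). Blue marks the 13 members called lower, all at or right of the dashed line at 1. The point at the top is the member of rank 130, at 3.61 with an SE of 2.34.

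The 2 members with the lowest fold change were not among those called. RTS0069974 had 49.6 and 191 CPM on entospletinib day 1 and 10.4 and 15.0 CPM on day 14, a log2 fold change of -3.16 with an SE of 0.74 and an adjusted p of 0.134 by edgeR. Its control sections had 46.6 and 22.4 CPM, both above day 14. RTS0064300 had 397 and 2498 CPM on day 1 and 145 and 287 CPM on day 14, with a log2 fold change of -2.66, an SE of 0.78, and an adjusted p of 0.208. In both, the day 1 sections stood far apart. The member of rank 9 was steadier, with 207 and 567 CPM on day 1 and 50.4 and 65.9 CPM on day 14. Its log2 fold change was -2.66 with an SE of 0.41 and an adjusted p of 0.0364.

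Much the same held on day 7. On day 7 against day 1, 12 members were called lower and 0 higher, beside 0.233% and 0.00991% of all probes, and 10 of the 12 were also called lower on day 14. DESeq2 called 28 members lower and 0 higher on day 7, beside 125 and 23 of all probes, and 66 members and 1678 of all probes had an unadjusted p under 0.05. Between days 14 and 7, edgeR called none of the members and 0% of all probes in either direction. There, 1 member and 152 of all probes had an unadjusted p under 0.05, the median was -0.02, and DESeq2 called 0.

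These counts leaned on section 2 of entospletinib day 1, in which members took 2.40% of counts against 1.05% in section 1. The calls were lost without that section or without either later section. Without that section the members' median was -0.19 on day 14 and -0.17 on day 7, beside -0.045 and 0.011 over all probes. Without section 1 of day 1 these medians were -0.546 and -0.548, beside 0.115 and 0.178. With TMM normalization the counts of members called lower were 7 and 3, beside 23 and 24 of all probes. In cortex alone they were 2 and 1, beside 7 and 5, and in medulla alone 1 and 5, beside 16 and 23. The median stayed below 0 in all of these fits.

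Cortex and medulla differed in vehicle tubules. The members' mean in medulla minus that in cortex of the same section was 0.844 and 1.097 on vehicle day 1, 0.65 and 0.48 on day 7, and 1.12 and 0.41 on day 14. The control sections had 0.31 and -0.01. Under entospletinib it was 0.20 and -0.07 on day 1, -0.04 and -0.33 on day 7, and 0.05 and -0.20 on day 14. All 6 vehicle sections were thus above all 6 entospletinib sections, although no test was made because the vehicle sums set the rule. Over all probes the mean was 0.115 and 0.185 on vehicle day 1, -0.091 and -0.11 on day 7, and 0.115 and 0.161 on day 14. With entospletinib it was 0.106 and -0.185 on day 1, 0.147 and -0.097 on day 7, and -0.081 and 0.058 on day 14.

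Cortex and medulla were also taken apart by day, as a description, since the rule used the same vehicle sums. Cortex gave 8104918 of 9968668 and 9488876 of 10724081 counts in the vehicle day 1 sums, so the sums behind the choice were mostly cortex on that day. Under entospletinib, cortex gave 6614737 of 16724169 and 13455270 of 25154451 counts in the day 1 sums. In cortex alone the members' median difference from control was 0.53, 1.13, and 1.71 on vehicle days 1, 7, and 14, and 131 of 150 rose at each step, beside 19.3% of all probes. In medulla alone the medians were 1.34, 1.55, and 2.36, and 71 of 150 rose at each step, beside 13.1%. In medulla, 92 members were at 1 or more on day 1, beside 4.39% of all probes, against 28 in cortex, beside 0.62%. On day 1 the median of entospletinib minus vehicle was -0.75 in medulla and 0.06 in cortex, and over all probes it was -0.22 and 0.001.

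Within the 6 entospletinib sections the regions could be tested, with the section as a block. The median medulla against cortex log2 fold change was -0.02, and 1 member was called lower and 0 higher by edgeR, beside 0.292% and 0.169% of all probes. The member called was RTS0064300, with a log2 fold change of -1.80, an SE of 0.25, and an adjusted p of 0.00133. In all, 20 members had an adjusted p under 0.05 by edgeR, and only 1 of them passed the fold change threshold. The number of all probes at that adjusted p was not taken. At an unadjusted p under 0.05 there were 45 members, beside 3326 of all 20175 probes, and DESeq2 called 1 member lower and 1 higher, beside 137 and 93 of all probes. Without section 2 of entospletinib day 7, 2 members were called, 1 in each direction.

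**Figure D5:**
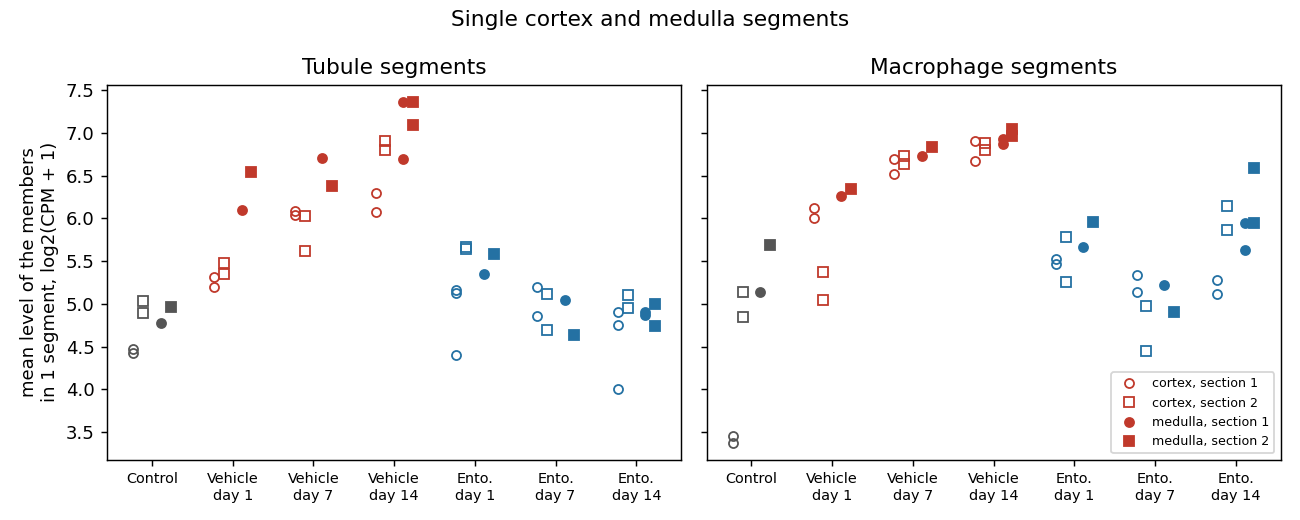
Mean level of the 150 members in each of the 94 single segments, in log2(CPM + 1), for tubules (left) and macrophages (right). Open symbols are cortex, filled symbols medulla, circles section 1, and squares section 2. Vehicle day 14 tubule segments lie between 6.08 and 7.36, above all control segments, which reach 5.04, and above all entospletinib segments of that day, which reach 5.11.

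Macrophage segments carried the members as well. Their mean macrophage level was 5.19 and 5.61 log2(CPM + 1) in controls, 6.26 and 5.99 on vehicle day 1, 6.70 and 6.77 on day 7, and 6.90 and 6.98 on day 14. Both vehicle day 14 sections were above both control sections in 139 members, beside 21.2% of all probes. On vehicle day 14 the members' mean in macrophage minus tubule segments was -0.001 and -0.19. In controls that difference was 0.54 and 0.64. The rule capped it in vehicle sections of days 7 and 14, so its size there is no finding. Signal from neighbouring cells in a segment cannot be told apart from expression in the stained cells.

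Macrophage sums of controls and of vehicle day 1 were not used by the rule. The tubule sums of the same sections were, so this comparison is not fully independent of the choice of members. On vehicle day 1 against control, 14 members rose and 0 fell by edgeR, beside 0.48% and 0.237% of the 18541 probes tested. The filter on low counts ran over all 14 macrophage sums and kept all 150 members. Without this filter 10 members rose and 0 fell, beside 72 and 47 of all 20175 probes. The 14 had log2 fold changes of 1.22 to 3.72 with SEs of 0.29 to 0.77. Over all 150 members the median was 0.68, against -0.05 for all probes, and 124 were above 0. Of the 14, 12 were early members, and 6 were among the 13 that fell in entospletinib tubules by day 14. DESeq2 called 16 members higher and 0 lower, beside 81 and 60 of all probes, and 56 members and 1935 of the 18541 probes tested had an unadjusted p under 0.05. Without control section 1 or 2 the members' median was 0.67 or 0.80, and without section 1 or 2 of vehicle day 1 it was 0.57 or 0.74. Fewer members were called in each of these fits. In cortex alone 4 members rose, beside 21 of the 13172 probes tested, and in medulla alone 27, beside 180 of 9439. Each of these regional fits tested 146 members.

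Macrophage and tubule segments of the 6 entospletinib sections were compared next. With the section as a block, 29 members were called higher and 0 lower by edgeR, beside 1.63% and 0.322% of all probes. Their log2 fold changes were 1.01 to 1.74 with SEs of 0.13 to 0.30. Over all 150 the median was 0.63, against -0.09 for all probes, and 133 were above 0 and 17 below. DESeq2 called 37 members higher and 0 lower, beside 381 and 32 of all probes, and 108 members and 4511 of all probes had an unadjusted p under 0.05. The 29 did not include any of the 13 members that fell in tubules. Both tests used the same entospletinib tubule sums, so these lists are not independent. Without section 2 of entospletinib day 14 the count was 16, beside 236 of all probes, and in cortex alone it was 17, beside 242.

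The members' mean in macrophage minus tubule segments was 0.41 and 0.27 on entospletinib day 1, 0.28 and 0.73 on day 7, and 0.91 and 1.33 on day 14. The mean over all probes was -0.05 and -0.01 on day 1, -0.10 and -0.12 on day 7, and 0.08 and 0.13 on day 14. The macrophage level itself was 5.70 and 5.93 log2(CPM + 1) on day 1, 5.37 and 5.61 on day 7, and 5.80 and 6.30 on day 14. The day 1 and day 14 sections overlapped. On day 14 against day 1 in macrophage segments, 5 members were called higher and 1 lower by edgeR, beside 0.28% of the 18541 probes tested in each direction. Without the filter on low counts, 3 members were called higher and 1 lower, beside 40 and 50 of all 20175 probes. The 5 had log2 fold changes of 1.22 to 1.72, and 4 of them were among the 29 that were higher in macrophages. Both tests used the same entospletinib macrophage sums, so this overlap is in part built in. The median over members was 0.15, with 98 above 0, where in tubules it was -0.34, with 32 above 0. Without section 2 of entospletinib day 14 the macrophage median was -0.06, with 71 above 0, and without section 1 of that day or section 2 of day 1 it was 0.39 and 0.38. Whether the time course differed between the compartments was not tested. These calls also rested on section 2 of entospletinib day 1, since without it there were 0, with 32 members at an unadjusted p under 0.05. Without section 2 of day 14 there were 2 calls, and DESeq2 called 3.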

How the data were processed

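For DSP, kidney sections were hybridized with the GeoMx Mouse Whole Transcriptome Atlas. The authors deposited raw counts of unique molecular identifiers (UMIs) per probe for 94 segments, 48 of tubules and 46 of macrophages, made with the GeoMx NGS Pipeline (3.1.1.5 in the file headers). The submitters' notes name build mm10 and R 4.3.1. All files hold such whole-number counts. No normalization or background subtraction precedes these counts, so background binding is part of every low value. UMIs mark single barcodes, and precision is limited by counting and by the number of sections.

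Regions of the same section and stain were summed. Levels are log2(CPM + 1). Tests used edgeR 4.0.16 in R 4.3.3 (robust quasi-likelihood, upper quartile normalization, filterByExpr with minimum count 10 and minimum total 15) over all 14 tubule or macrophage sums, or 12 paired sums with the section as a block. The SE equals the size of the log2 fold change over the square root of F. The study's methods took each region as a replicate, and here the section was, because regions of a section are not independent. Alternatives were DESeq2 1.42.0 on sums and on regions, TMM, no filter, cortex or medulla alone, the section number as a block, and leaving out sections. The fitting code was run on simulated counts with known changes for 4 of the 7 tests. Probes to be named were the 2 members with the largest day 14 difference and, among the others, the 2 with the lowest fold change of entospletinib day 14 against day 1 in tubules. The members and the tests were chosen with earlier results of these data known.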

Additional observations from a re-analysis of the deposited data

Results flagged for a closer look

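Of 14 groups of single segments, 2 held a tubule segment far from the others in the members' mean level, where chance flags about 1 in 20 groups. A cortex segment in section 1 of entospletinib day 1 had 4.404 log2(CPM + 1), the lowest of 7, and a cortex segment in section 1 of entospletinib day 14 had 4.00, the lowest of 9. They held 125254 and 77621 counts, the smallest totals among tubule segments, and each had a deeper second segment from the same region. Without them the lowest segments of these groups were at 5.13 and 4.75. Since sums weight segments by counts, both added little to their sections.

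On day 7, medulla minus cortex in tubules had opposite signs under vehicle and entospletinib. The members' mean difference was 0.646 and 0.482 in the vehicle sections and -0.039 and -0.328 in the entospletinib sections. Over all probes it was -0.09 and -0.11 in the vehicle sections and 0.15 and -0.10 in the entospletinib sections. This difference was not tested.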

How the results depend on the processing

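Applied under other settings, the rule kept 75 of the 150 members in cortex alone, 91 in medulla alone, at least 110 when 1 section was left out, and 120 to 149 under the other scalings, pseudocounts, and means of regions. In entospletinib tubules, the count of members called lower on day 14 against day 1 was 13, and it was 7 with TMM normalization, 2 in cortex, 1 in medulla, 27 with DESeq2, 29 with DESeq2 on regions, and 0 to 31 when 1 section was left out. On day 7 against day 1 it was 12, and it was 3, 1, 5, 28, and 30 under the same settings and 0 to 27 when 1 section was left out. Day 14 against day 7 gave 0 in each fit. Medulla against cortex gave 1 call, 2 with DESeq2, and 1 to 2 when 1 section was left out. Macrophage against tubule segments gave 29, 17 in cortex, and 16 to 41 when 1 section was left out. Macrophage segments on entospletinib day 14 against day 1 gave 6 calls, 2 in cortex, 2 in medulla, 3 with DESeq2, and 0 to 8 when 1 section was left out. Without the macrophage sum of lowest total, an alternative added after seeing the data, they gave 7. Macrophage segments on vehicle day 1 against control gave 14, 4 in cortex, 27 in medulla, and 2 to 8 when 1 section was left out. Over all probes the counts moved as well. In entospletinib tubules on day 14 against day 1, 50 were called lower, and 23 with TMM, 7 in cortex, and 16 in medulla. In macrophage segments on vehicle day 1 against control, 89 were called higher, and 21 in cortex and 180 in medulla. The cause of these changes was not tested. Leaving out a section also lowered the number of sections. Where a group had 1 section left, its spread was taken from the other groups.

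The section number was not taken to pair the samples, because deviations of same-numbered sections did not correlate above 0.1 in every pair of groups. In tubules the correlation was -0.55 to 0.72 (median 0.33) with 15 of 21 pairs over 0.1, and in macrophages it was -0.10 to 0.27 with 6 of 21. With the number as a replicate block, the members called were 15, 14, and 0 in the 3 tubule time comparisons, 7 in macrophages on entospletinib day 14 against day 1, and 29 on vehicle day 1 against control. Without the section block, medulla against cortex gave 1 call, another member and in the higher direction, so that the call of the blocked fit was lost, and macrophage against tubule segments 28.

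Macrophage sums were the shallowest, with totals down to 117693 counts per section.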

Other observations

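The member of rank 130 belonged to a small set of probes that followed the section number. Over all 20175 probes, 12 were higher in section 2 than in section 1 by 1 or more on the log2(CPM + 1) scale in tubules of all 6 ischemic groups, and 5 were lower by as much. That member was the only one of the 150 in either set. This pattern was looked for after its values were seen.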
